A study of Mus musculus with 365 samples.

Results

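Among the triple negative (TN) cells of a sorted bone marrow progenitor compartment, 73 of 213 carried Kit transcript at 25 CPM (reads per 1000000 counted reads of the cell) or more, and these Kit-positive cells were compared with the 140 TN cells below that level. The cells belong to EPLM, the early progenitors that can still form lymphoid and myeloid cells, and came from the femur marrow of C57BL/6 mice with a Flt3 ligand transgene (Flt3Ltg), 2 mice to a pool. The whole series holds 365 single-cell transcriptomes, 213 from TN cells on capture chips 1, 2 and 3 and 152 from Ly6D+ cells on chips 4, 5 and 6. All mice carried the transgene, no untreated or wild-type group was compared, and neither the promoter of the transgene nor the age and sex of the mice is in the labels. Each cell was assigned by its own Kit reads, and the 2 sides were set against each other within each chip. Because the cells were chosen by their Kit values, Kit itself is given as a description only.

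Kit encodes the receptor tyrosine kinase for stem cell factor, the product of Kitl, and signals through Src family kinases, the Ras and MAP kinase route, phosphoinositide 3-kinase and Stat5. Haematopoietic stem cells and early progenitors display the receptor strongly, most lineages lose it as they mature, and mast cells keep it. The EPLM gate is known to take cells with low surface Kit protein, and TN cells are known as those without Ly6D, SiglecH and CD11c at the surface. A division by transcript is therefore not a division by receptor protein, and a cell without Kit reads can still have the receptor.

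Kit reached the threshold in a minority of TN cells on every chip, while 52%, 50.7% and 28.99% of cells on chips 1, 2 and 3 had any Kit read. Positive cells made up 30 of 75 cells on chip 1 (40%, exact binomial 95% interval 28.9% to 51.96%), 28 of 69 on chip 2 (40.6%, 28.9% to 53.1%) and 15 of 69 on chip 3 (21.7%, 12.7% to 33.3%). The mean of the 3 chips was 34.1% ± 10.7 (SD), with chip 3 below the other two. Cells with 0 Kit reads made up 55.9% of all TN cells, and 21 cells had reads below the threshold. The positive cells spread from 25.9 to 6562 CPM, with a median of 270 CPM and quartiles of 86.6 and 638 CPM. The 5 highest cells held 39.3% of the summed Kit CPM of the positive cells, 13 cells were at 1000 CPM or more, and 20 lay below 100 CPM. The cells nearest the threshold held 14.5, 16.2 and 22.2 CPM on the negative side and 25.9, 27.4 and 33.8 CPM on the positive side, or 9 to 20 reads a cell. The median positive cell stood at 180.9 CPM on chip 1, 363 CPM on chip 2 and 244 CPM on chip 3. These intervals cover the counting of cells only and take the cells of a chip as independent draws. The reads carry no molecular identifiers, so reads of 1 cell are not independent molecules.

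**Figure D1:**
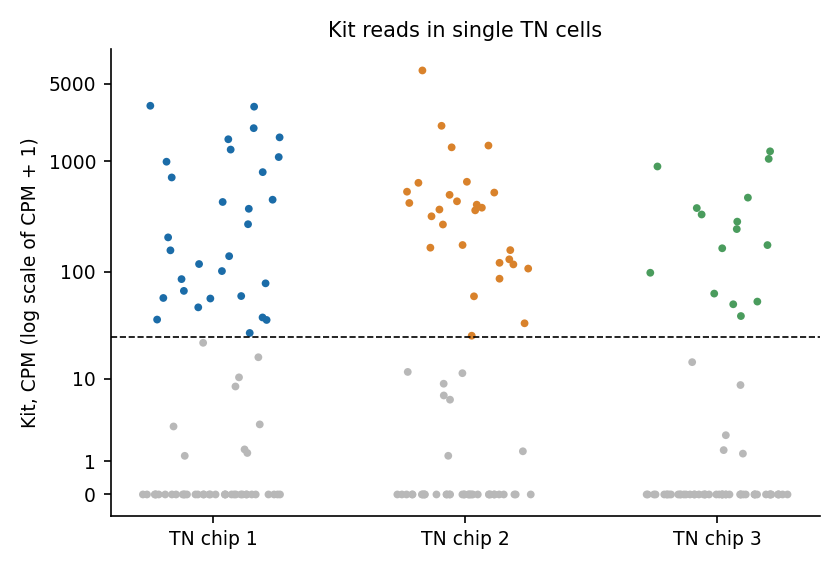
Kit level of each of the 213 TN cells by chip, in CPM on a log scale of CPM + 1. Each point is a cell, coloured points are the Kit-positive cells, grey points the Kit-negative cells, and the dashed line is the 25 CPM threshold that divided them. Most negative cells lie at 0, and the positive cells reach from 25.9 to 6562 CPM.

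The sides were alike in depth. Reads per cell averaged 814651 ± 20684 on the positive and 768749 ± 52446 on the negative side (SD, n = 3 chips, exact sign-flip permutation test, two-sided, p = 0.5). Genes detected per cell, each cell thinned to 200000 reads, averaged 2542 ± 23.6 and 2518 ± 108.8 (exact permutation test, p = 0.75). With 3 chips this test cannot give a p below 0.25. Summed over cells, the 6 chip-by-side libraries held between 11907085 and 38695792 reads, with the lowest total on the positive side of chip 3, which rests on 15 cells. Fewer than 1500 genes were detected in 16 TN cells, of which 4 were Kit-positive. Xist was detected in 41 TN cells, all of them on chip 2, so the chips were not alike in the animals they held. Which animals supplied which chip is not in the labels, so p-values here cover chip-to-chip spread only, and part of that can be technical.

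With Kit left out, no gene passed the test for a difference between the 2 sides. The chip sums of 10971 genes were compared within chips by the quasi-likelihood test of edgeR, and 0 (0.0%) had an adjusted p under 0.05, and the smallest adjusted p was 0.845, for Mpo. At an unadjusted p under 0.05, 1.47% of genes were higher and 2.22% (244) lower in Kit-positive cells. On all 3 chips alike, 1259 genes (11.5%) were higher and 1717 (15.7%) lower. Lower in these counts and in those of the lists means higher on no chip, so a chip with equal values counts as lower. Of the 10971 genes, 480 had every positive chip value above every negative one, and 696 had every positive value below. The median log2 fold change of all tested genes was −0.13, and 43.8% of genes had a positive one. DESeq2 on the same sums called 71 genes higher (0.673%) and 1.46% lower of 10545 with an adjusted p, while limma-trend on the chip means of log2(CPM + 1) per cell called 2 genes (0.0182%). The median standard error of a log2 fold change was 1.03, and 0.54 among the genes above the median level, so that changes of this size in a typical gene were not detectable with 3 chips. The values below are descriptions unless a call is named, and fold changes are Kit-positive over Kit-negative.

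**Figure D2:**
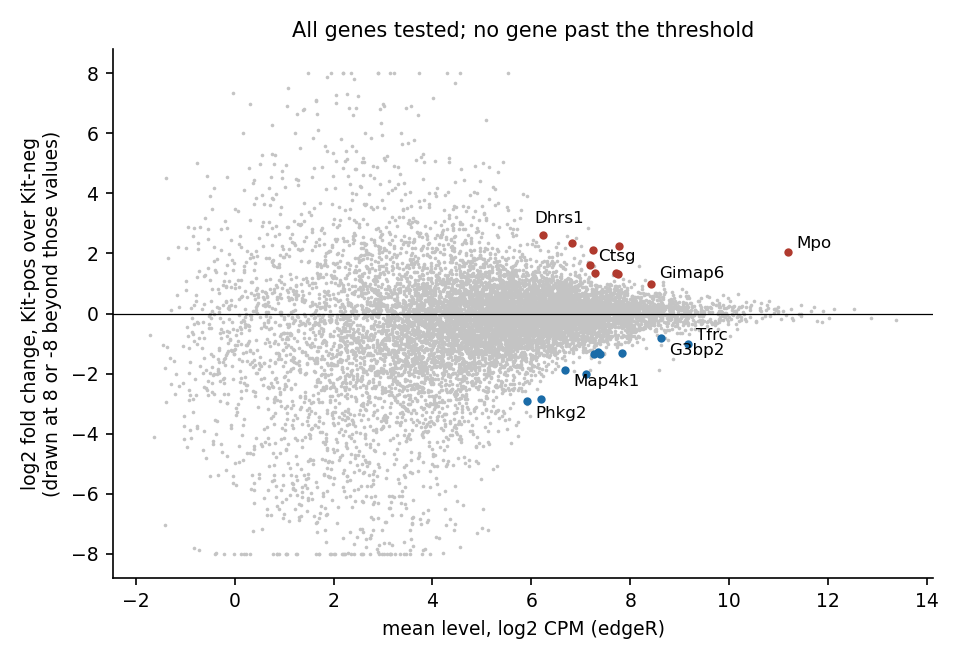
Log2 fold change, Kit-positive over Kit-negative TN cells, against mean level in log2 CPM for the 10971 tested genes. Red and blue points are the 10 genes in each direction with the smallest p that met the naming rule, and values beyond 8 or −8 are drawn at those limits. Mpo stands apart at the upper right, at a high mean level and a log2 fold change of 2.05, and low genes scatter widely on both sides of 0.

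Genes of stem and multipotent progenitors leaned towards the Kit-positive side. Of 25 list members 20 were tested, 16 had a positive log2 fold change and 4 a negative one, and the list's median was 0.45 against −0.13 for all genes. Higher on all 3 chips were 6 members (30%) and lower 2 (10%), against 11.5% and 15.7% of all genes. At an unadjusted edgeR p under 0.05, 3 were higher and 0 lower, against 1.47% and 2.22% of all genes. No member passed edgeR's test, and DESeq2 called 1 higher, Gata2, against 0.673% of all genes. A Kit-positive cell had on average 6.12 ± 0.12 of the 25 members detected and a Kit-negative cell 5.16 ± 0.33 (SD, n = 3 chips, higher on 3 of 3 chips, exact sign-flip permutation test, p = 0.25). The list's median stayed between 0.23 and 0.75 in the 19 other settings tried. A member counts as detected at 5 or more of 200000 thinned reads, which equals 25 CPM.

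Cd34, the sialomucin that marks haematopoietic progenitors, stood at 519, 495 and 712 CPM in Kit-positive cells of chips 1, 2 and 3 and at 322, 376 and 345 CPM in Kit-negative cells. Every positive value lay above every negative one, as for 480 of all 10971 tested genes. The log2 fold change was 0.71 ± 0.22 (SE), and 0.22 ± 0.41 without the cycling cells defined below. It was detected in 62.3% ± 10.1 of positive and 47.8% ± 1.3 of negative cells, and it reached 1000 CPM or more in 17 of 73 against 12 of 140 cells. Runx1, a transcription factor required for definitive blood formation and no member of the list, held 197.7, 269 and 367 CPM against 105.2, 160.9 and 179.1 CPM, again without overlap, for a log2 fold change of 0.90 ± 0.27.

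Gata2, a zinc finger factor of stem cells and of mast cell and megakaryocyte precursors, was rare. Its summed level was 14.3, 5.10 and 42.4 CPM in Kit-positive cells and 0.309, 0.187 and 0.397 CPM in Kit-negative cells. The groups did not overlap, but 8 of 73 and 2 of 140 cells carried the transcript at detection level, and 1 cell held 24.4% of the positive reads. The fitted log2 fold change was 5.66 ± 1.62 and did not pass the edgeR test, whereas DESeq2 gave an adjusted p of 0.00381. With the positive side raised to 100 CPM of Kit it was 1.55. Gata1, the related factor of red cells and mast cells, had 0 reads in all 213 TN cells (a count of 0 allows up to 1.41% of cells with a read, which is no limit on cells that express the gene). Emb, an immunoglobulin superfamily glycoprotein, was at 516, 729 and 819 CPM against 439, 470 and 528 CPM.

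The other stem cell genes showed no such separation. Meis1, a homeobox cofactor of Hox proteins, had a log2 fold change of 0.97 ± 0.74 and Hoxa9 one of 0.40 ± 0.89, each with overlapping chips. Tal1 and Erg, transcription factors of early blood cells, were detected in 5.7% and 8.1% of positive and 2.0% and 4.0% of negative cells. Lmo2, a partner of Tal1, was at 102.9 ± 16.1 CPM against 85.6 ± 11.9 CPM (SD, n = 3 chips). Cd48 and Cd27, surface proteins that most multipotent and lymphoid progenitors share, had log2 fold changes of 0.19 ± 0.20 and 0.33 ± 0.51. Sox4 lay on the other side at −0.74 ± 1.27.

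**Figure D3:**
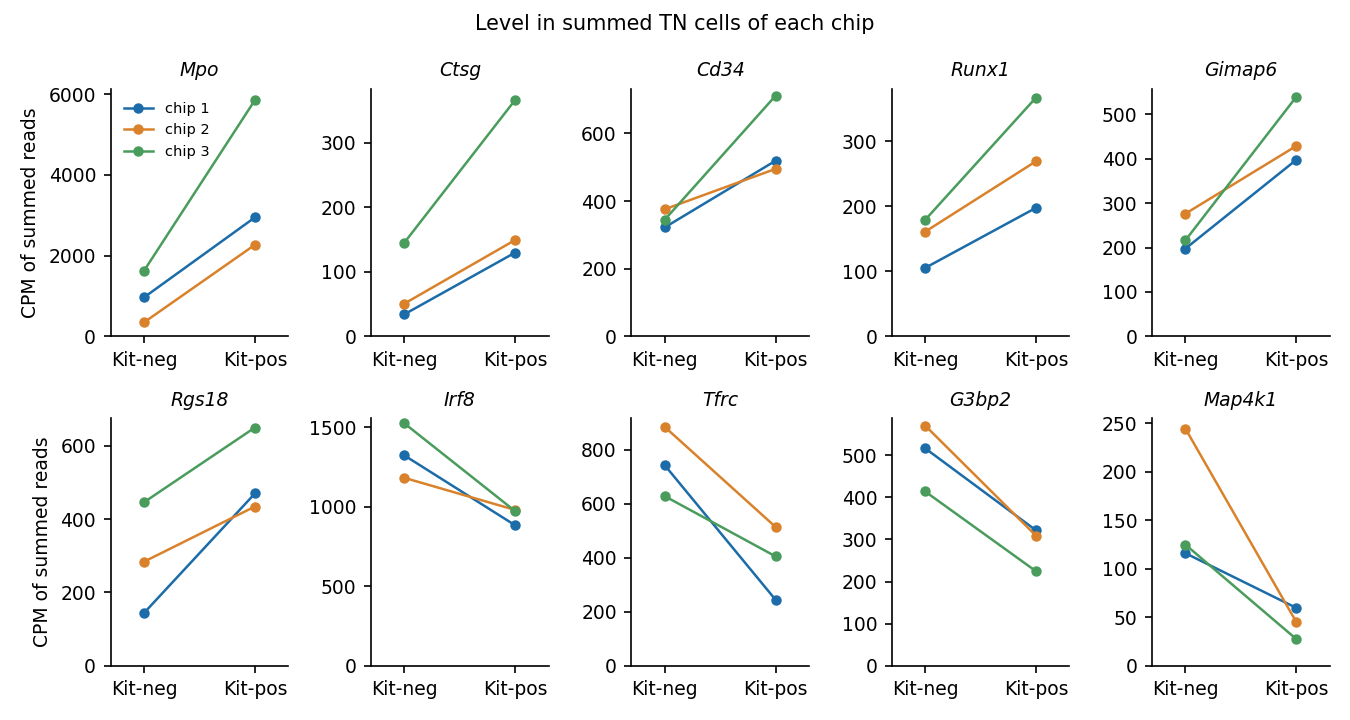
Level of 10 genes in the summed Kit-negative and Kit-positive TN cells of each chip, in CPM on linear axes that start at 0. Each line joins the 2 sides of 1 chip. Mpo, Ctsg, Cd34, Runx1, Gimap6 and Rgs18 are higher in Kit-positive cells on each chip, and Irf8, Tfrc, G3bp2 and Map4k1 are lower on each chip.

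Myeloid granule genes gave the largest difference relative to its error. Mpo, which encodes the myeloperoxidase of neutrophil and monocyte precursors, was at 2948, 2269 and 5852 CPM in Kit-positive cells of chips 1, 2 and 3 and at 965, 347 and 1624 CPM in Kit-negative cells. Every positive value lay above every negative value, and the log2 fold change was 2.05 ± 0.23 (SE), with an edgeR adjusted p of 0.845 and a DESeq2 adjusted p of 1.03e-13. More cells had it (40.8% ± 5.5 against 28.8% ± 5.6), and those that had it held more.

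Among cells with Mpo detected, the median was 1713, 2282 and 4286 CPM on the positive side and 360, 526 and 1273 CPM on the negative side. At 1000 CPM or more were 21 of 73 positive and 17 of 140 negative cells. The highest single cell of the negative side, at 44843 CPM on chip 1, held 29.2% of that side's Mpo reads, and the highest of the positive side 17.8%. The difference between the sides was thus carried by a minority of strongly expressing cells.

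The Mpo difference was not seen when cells rich in division genes were left out. Cells were counted as cycling when 5 or more of 20 genes of the G2/M phases were detected, and without these cells (53.5% of TN cells) the log2 fold change of Mpo was −0.31 ± 1.06 (SE). This left 16, 14 and 7 positive cells on the 3 chips, and leaving out other cells in like number was not tried. That of Ctsg, which encodes the granule protease cathepsin G, was then 0.20 ± 1.29. With all cells, Ctsg was at 130, 149.4 and 366 CPM against 34.2, 50.7 and 145.1 CPM, higher in Kit-positive cells of each chip but with overlap between chips (log2 fold change 1.61 ± 0.34). It was detected in 29.2% ± 16.3 of positive and 13.7% ± 5.8 of negative cells.

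Of 25 tested members of the myeloid list (26 in all), 17 had a positive log2 fold change and 8 a negative one, and the median was 0.35. On all 3 chips 7 were higher (28%) and 0 lower, against 11.5% and 15.7% of all genes. Prtn3, which encodes proteinase 3, was higher on each chip (208.8, 183.6 and 539 CPM against 170, 70.7 and 219 CPM), yet the share of cells with it was 38.5% against 37.2%. Elane, neutrophil elastase, was higher on 2 chips and lower on chip 1, where 1 Kit-negative cell held 8258 CPM. Igsf6, a membrane protein of myeloid cells, was found in 20.6% of positive and 4.8% of negative cells, with 230, 115.5 and 117.8 CPM against 92.6, 5.38 and 53.6 CPM. The median of the list was 0.03 without cycling cells. DESeq2 called 3 members, Mpo, Ctsg and Igsf6, all higher, against 0.673% of all genes called higher.

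The regulators of this programme had wide errors. Cebpa, the granulocyte and monocyte lineage factor, was at 22.1 ± 5.58 CPM against 11.5 ± 10.0 CPM, and Gfi1 was detected in 3.3% against 0.7% of cells. Spi1, which encodes PU.1, had a log2 fold change of −0.39 ± 1.14 and Csf1r, the receptor for macrophage colony-stimulating factor, one of −0.43 ± 0.39. Markers of mature neutrophils were close to absent, with a summed level of 8.98 ± 14.4 CPM in positive and 31.1 ± 33.2 CPM in negative cells, and S100a8 and S100a9 were at 0 on both sides.

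**Figure D4:**
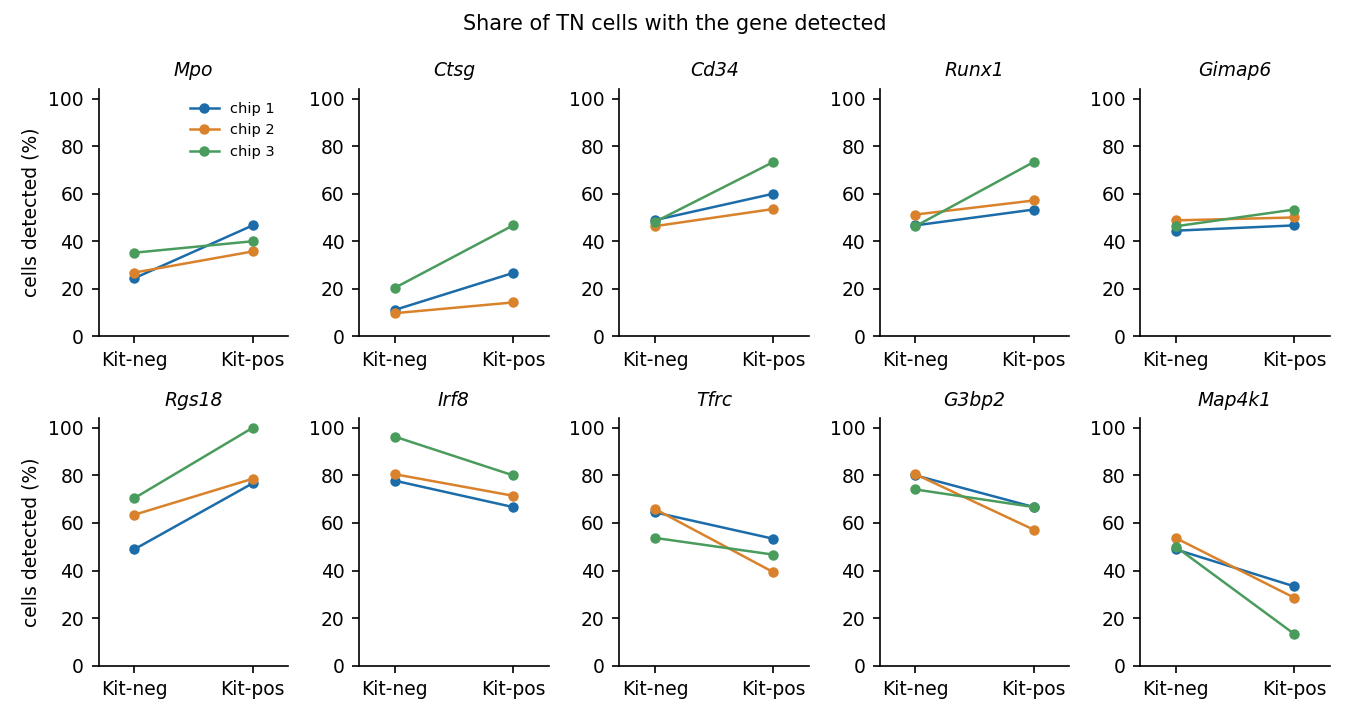
Share of TN cells of each side in which the same 10 genes were detected, in percent, with each cell thinned to 200000 reads and a line for each chip. Rgs18 was detected in 76.7%, 78.6% and 100% of Kit-positive cells against 48.9%, 63.4% and 70.4% of Kit-negative cells, and Map4k1 shows the reverse order on each chip.

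Rgs18 and Irf8 were the 2 genes that passed the test on cell means, in which each cell weighs the same whatever its level. Rgs18, a regulator of G protein signalling found in blood cell progenitors and platelets, was detected in 85.1% ± 12.96 of Kit-positive and 60.9% ± 10.96 of Kit-negative cells. Its difference in mean log2(CPM + 1) was 2.37 ± 0.39 (SE, limma-trend adjusted p = 0.0105), and on the chip sums its log2 fold change was 0.95 ± 0.30. The summed level was 470, 435 and 650 CPM on the positive side and 143.7, 284 and 446 CPM on the negative side, higher on each chip with a small overlap between chips.

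Irf8 went the other way. It encodes an interferon regulatory factor needed for dendritic cell and monocyte development, and it was at 884, 980 and 972 CPM in Kit-positive cells and at 1324, 1183 and 1526 CPM in Kit-negative cells. The groups did not overlap, the difference on cell means was −1.53 ± 0.27 (limma-trend adjusted p = 0.0240), and the log2 fold change on sums was −0.50 ± 0.16. It was detected in 72.7% ± 6.8 of positive and 84.9% ± 10.0 of negative cells. Neither gene passed edgeR's test.

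Conventional dendritic cell genes leaned with Irf8, while plasmacytoid ones were close to the background, and Irf8 is on both lists. Of 19 tested conventional dendritic genes 13 had a negative log2 fold change (median −0.39). On all 3 chips 1 was higher and 6 (31.6%) were lower, against 15.7% lower among all genes. DESeq2 called 1 higher, Cd83 (log2 fold change 9.25, adjusted p = 0.00935), and 1 lower, Cd86 (log2 fold change −4.53, adjusted p = 0.0223). Over all genes it called 0.673% higher and 1.46% lower. Neither Cd83 nor Cd86 passed edgeR's test. How many cells carried them is not given here, and some DESeq2 calls rested on single cells. Of 19 plasmacytoid genes 14 had a negative one (median −0.22), with 3 higher (15.8%) and 3 lower (15.8%) on all 3 chips, against 11.5% and 15.7% of all genes. Spib, a factor of plasmacytoid and B cells, was detected in 0 of 73 positive cells (a count of 0 allows up to 4.11% of cells with it detected) and in 4.1% ± 1.6 of negative cells. Siglech, a surface lectin of plasmacytoid cells that the TN sort selects against, was detected in 2.4% of positive and 12.1% of negative cells, and the positive side of chip 2 was at 63.2 CPM, above that chip's negative side. DESeq2 called it lower (adjusted p = 0.00471). The MHC class II list, for antigen presentation, had 6 of 10 tested members with a negative value and a median of −0.21. That median ran from −1.36, without cycling cells, to 0.30, with Kit positive at any read. H2-Aa and Cd74, which serve peptide presentation on MHC class II, had log2 fold changes of 0.02 ± 0.24 and −0.26 ± 0.37, and Cst3, a cysteine protease inhibitor abundant in dendritic cells, one of 0.20 ± 0.14.

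Early lymphoid genes were split in sign, but more members were higher than lower on all 3 chips. The list had 25 tested members of 26, 14 with a positive and 11 with a negative log2 fold change, and a median of 0.17. On all 3 chips 9 were higher (36%) and 4 lower (16%), against 11.5% and 15.7% of all genes. At an unadjusted edgeR p under 0.05, 5 were higher and 0 lower, against 1.47% and 2.22% of all genes. DESeq2 called 2 higher, Ikzf2 and Gimap6, against 0.673% of all genes. The median ran from 0.08 to 0.65 in the 19 other settings. Members detected per cell were 7.28 ± 0.83 against 7.01 ± 0.53, higher on 2 of 3 chips. Gimap6, a GTPase of immune cells, was at 398, 429 and 540 CPM against 197.7, 276 and 217 CPM without overlap (log2 fold change 0.99 ± 0.25). The shares of cells with it were 50% ± 3.3 against 46.5% ± 2.2, and 14 of 73 positive and 10 of 140 negative cells were at 1000 CPM or more.

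Il7r, the interleukin-7 receptor chain that early B, T and innate lymphoid precursors depend on, was at 522, 316 and 186.3 CPM against 178.5, 222 and 83.7 CPM (log2 fold change 1.07 ± 0.30). Dntt, which encodes the terminal transferase of antigen receptor assembly, was at 1266, 837 and 654 CPM against 796, 549 and 519 CPM (0.54 ± 0.17). Both were higher on each chip while the chips overlapped. With positive cells taken from 100 CPM of Kit, Dntt was at −0.56. Lck, a Src family kinase of T cell receptor signalling, was at 351, 206.2 and 193.4 CPM against 153.02, 151.1 and 81.5 CPM without overlap.

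Flt3, the receptor for the ligand that these mice overproduce, was at 288, 266 and 296 CPM in Kit-positive and 328, 356 and 306 CPM in Kit-negative cells. The values did not overlap although the log2 fold change was −0.22 ± 0.23. Ikzf1, Satb1, Notch1 and Rag1, further genes of lymphoid priming and recombination, overlapped between sides, and Rag1 was detected in 2.3% of positive and 0.8% of negative cells. Genes of T and innate lymphoid cells had a median of 0.33 over 19 tested members of 28. On all 3 chips 6 were higher (31.6%) and 1 lower (5.26%), against 11.5% and 15.7% of all genes. Gata3 (0.79 ± 0.44), Tcf7 (−1.35 ± 0.67) and Id2 (−0.05 ± 0.30), regulators of T and innate lymphoid fate, did not share a direction.

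The tested B-lineage genes all had negative values in the reported setting but rested on few cells. All 15 tested members of 24 had a negative log2 fold change, with a median of −2.68. On all 3 chips 0 were higher and 6 lower (40%), against 11.5% and 15.7% of all genes. A single Kit-negative cell of chip 2, with 0 Kit reads, held 76.2% of that chip's reads of Ebf1, the factor that sets the B cell programme. The same cell held 73.8% of the reads of Cd79a, which transmits B cell receptor signals, and 92.4% of those of Igll1, the surrogate light chain. Without it the list's median was −2.07, and without chip 2 the median was −1.15. Over the 19 other settings the median ran from −4.445, without chip 1, to −0.14, by limma-trend on cell means. With Kit positive at any read it was −0.44, with 7 members positive and 10 negative. Ebf1 was at 40.9, 20.7 and 0 CPM in positive and 0.0257, 216 and 6.04 CPM in negative cells, with no common order over chips. Ly6d, the gene whose protein the TN sort excludes, was detected in 6.9% ± 6.0 of positive and 17.7% ± 3.8 of negative cells.

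**Figure D5:**
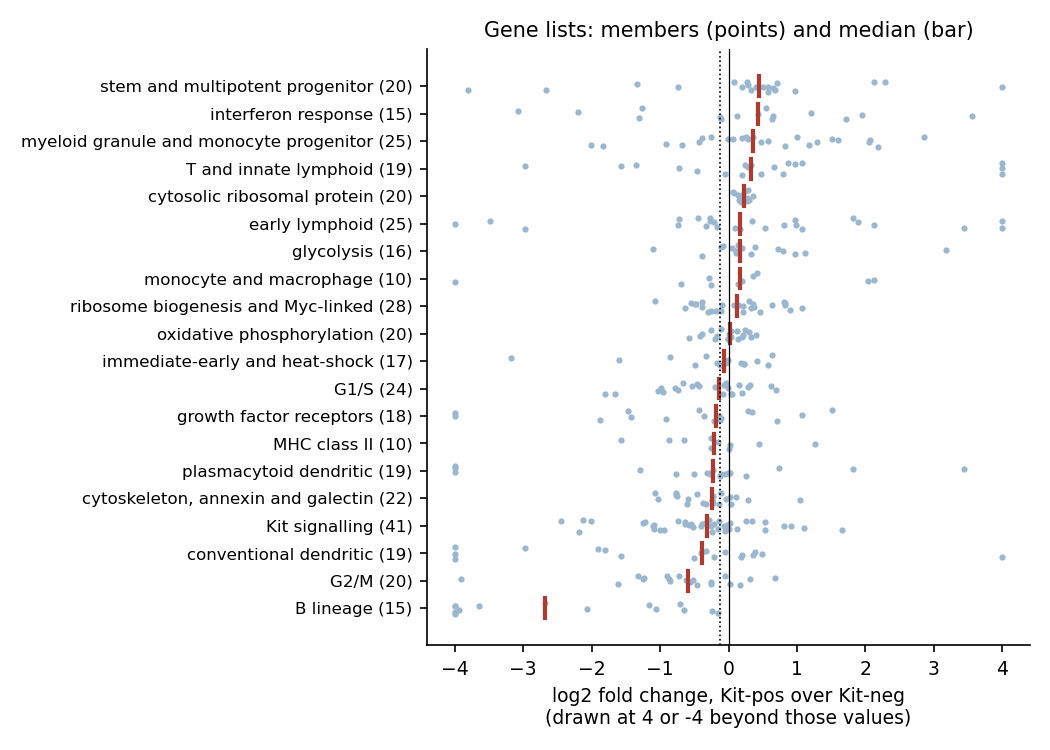
Log2 fold change of the tested members of 20 gene lists with 10 or more tested members, Kit-positive over Kit-negative, as points, with the list's median as a red bar and the number tested in parentheses. The dotted line is the median of all tested genes (−0.13), and values beyond 4 or −4 are drawn at those limits. Stem and multipotent progenitor genes have the highest median (0.45), B-lineage genes the lowest (−2.68), and ribosomal protein genes lie closest together.

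Transcripts of the Kit signalling route mostly had negative log2 fold changes, but few passed an unadjusted threshold. Their counts over chips were near those of all genes. Of 44 genes for adaptors, kinases, phosphatases and inhibitors known to act below the receptor, 41 were tested, 11 had a positive and 30 a negative log2 fold change, and the median was −0.32. Higher on all 3 chips were 4 members (9.76%) and lower 8 (19.5%), against 11.5% and 15.7% of all genes. A positive log2 fold change was found in 26.8% of members and 43.8% of all genes. At an unadjusted edgeR p under 0.05, 1 was higher and 2 were lower, against 1.47% and 2.22% of all genes. Lyn, a Src family kinase that binds the activated receptor, was at 79.4, 112.96 and 75.1 CPM in positive and 294, 163.3 and 176.2 CPM in negative cells without overlap (log2 fold change −1.22 ± 0.39). Vav1, the other lower member at that level, had a log2 fold change of −0.94 ± 0.34. Pik3cd, the catalytic delta subunit of phosphoinositide 3-kinase in blood cells, was the member higher at that level, at 278, 172.3 and 266 CPM against 126.5, 147.9 and 126.6 CPM.

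Sh2b3, which encodes the inhibitory adaptor Lnk, was at 75.2, 69.2 and 54.8 CPM against 39.8, 18.3 and 12.6 CPM without overlap (1.66 ± 0.74), although it was −0.59 with positive cells taken from 100 CPM of Kit. Stat5a (−0.39 ± 0.88) and Stat5b (−1.25 ± 0.83), transcription factors activated below many cytokine receptors, overlapped or lay low. The ligand gene Kitl had no read in Kit-positive cells (which allows up to 4.11% of cells with a read) and reads in 1 Kit-negative cell. Kit-positive cells had 12.1 ± 0.67 of the 44 route members detected and Kit-negative cells 12.8 ± 0.98 (lower on 3 of 3 chips, exact permutation test, p = 0.25).

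Other growth factor receptors had mostly negative values, with 5 positive and 13 negative log2 fold changes in 18 tested members of 20. Their median was −0.18, near that of all genes (−0.13). In the 19 other settings the receptors' median was positive in 0 and that of all genes in 2. On all 3 chips 3 were higher (16.7%) and 5 lower (27.8%), against 11.5% and 15.7% of all genes. DESeq2 called 1, Csf2rb2, lower, against 1.46% of all genes. Csf2rb, the beta chain shared by the receptors for interleukin-3, interleukin-5 and GM-CSF, was at 34.9, 42.3 and 50.97 CPM in positive and 107.001, 86.3 and 155.7 CPM in negative cells. The groups did not overlap (log2 fold change −1.42 ± 0.48), and 20.3% against 32.6% of cells had it. Its close copy Csf2rb2, with which reads can be shared, was at 11.998, 0.124 and 0.187 CPM against 22.3, 19.2 and 38.3 CPM.

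Genes of cell division leaned towards the Kit-negative side and those of ribosomes towards the Kit-positive side. Among 20 G2/M genes, 0 were higher and 4 (20%) lower on all 3 chips, against 11.5% and 15.7% of all genes. Of the 20 genes, 4 had a positive and 16 a negative log2 fold change (median −0.59). A positive cell had 5.36 ± 1.06 of them detected and a negative cell 6.96 ± 0.46, and cycling cells made up 50% ± 3.3 against 55.5% ± 1.9, lower on 3 of 3 chips (exact permutation test for each, p = 0.25). Chip 1 stood apart, with a summed G2/M level of 1784 CPM in positive cells against 3959 and 4000 CPM on chips 2 and 3 and 4019 to 4352 CPM on the negative side. Without chip 1 the list's median was −0.19.

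Top2a, the topoisomerase of dividing chromosomes, was at 386, 915 and 952 CPM against 844, 1028 and 1147 CPM. Mki67, the proliferation marker, was lower on chips 1 and 3 and higher on chip 2 (−0.56 ± 0.29). Tpx2, a spindle assembly factor, was at 20.1, 121.4 and 154.03 CPM against 161.003, 292 and 237 CPM without overlap. Of 24 genes of the G1/S transition 8 had a positive and 16 a negative value (median −0.14), close to the median of all genes.

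The 20 cytosolic ribosomal protein genes all had a positive log2 fold change, with a median of 0.22. On all 3 chips 14 were higher (70%) and 0 lower, against 11.5% and 15.7% of all genes. Their summed level was 20489, 16921 and 20353 CPM in positive and 18669, 16336 and 17371 CPM in negative cells. The total was higher on each chip, by least on chip 2, and it was not tested. No member had an unadjusted p under 0.05, and 15 of 20 stayed positive without cycling cells. Rpl23 was at 623, 560 and 703 CPM against 501, 459 and 504 CPM. These proteins are made in step for 1 complex, so the members are not independent of each other.

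Ribosome biogenesis and Myc-linked genes had a median of 0.13 (16 positive and 12 negative of 28). On all 3 chips 9 were higher (32.1%) and 1 lower (3.57%), against 11.5% and 15.7% of all genes. The list's median was −0.10 without chip 1, −0.08 without cycling cells and −0.23 without cells that had Mpo or Prtn3. Ncl, the nucleolar protein nucleolin, was at 1344, 1465 and 1570 CPM against 1013, 1240 and 1123 CPM without overlap. Myc itself was at 0.36 ± 0.41. Glycolytic genes had a median of 0.17 with 12 of 16 positive, and oxidative phosphorylation genes one of 0.02. Interferon response genes had a median of 0.43, but it was 0.09 without chip 1, −0.12 with positive cells taken from 100 CPM of Kit and −0.85 without cells that had Mpo or Prtn3. The list's summed level was 2598 CPM in positive and 2216 CPM in negative cells of chip 3 against 505 to 941 CPM on both sides of the other chips.

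Genes of the cytoskeleton, annexins and galectins were lower as a list, with 17 of 22 negative (median −0.24). On all 3 chips 1 was higher (4.55%) and 9 lower (40.9%), against 11.5% and 15.7% of all genes. Vim, the intermediate filament vimentin, was at 572, 836 and 916 CPM in Kit-positive and 1377, 1171 and 1307 CPM in Kit-negative cells. The groups did not overlap (log2 fold change −0.75 ± 0.21), and 77.3% ± 10.1 against 92.2% ± 2.9 of cells had it. Actb was lower on each chip by a small amount (−0.23 ± 0.08).

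The genes with the smallest p that met the naming rule, 10 in each direction, did not pass edgeR's threshold. DESeq2 called 17 of these 20 at an adjusted p under 0.05, all but Slu7, Ddx1 and G3bp2. Over all genes it called 0.673% higher and 1.46% lower. The 20 were chosen by p on the same sums, so these calls are no separate support. Beside Mpo, Ctsg and Gimap6, those higher were Ncoa1, Inpp5k, Fam172a, Dapp1, Dhrs1, Pitpnb and Esco1, with log2 fold changes from 1.32 to 2.61. Dapp1, an adaptor that binds 3-phosphoinositides, was at 329, 174.4 and 419 CPM against 124.6, 75.05 and 164.9 CPM. Inpp5k, an inositol polyphosphate phosphatase, was at 301, 213 and 551 CPM against 144.97, 29.9 and 78.2 CPM. Pitpnb, a phosphatidylinositol transfer protein, was detected in 59.2% ± 10.9 of positive and 33.6% ± 4.1 of negative cells, without overlap of chips. Ncoa1, a nuclear receptor coactivator, rested on few cells, 1 of which held 40.04% of the positive reads.

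Those lower were Phkg2, Nemp2, Ckap2l, Cyb561a3, Slu7, Selenop, Tfrc, Ddx1, G3bp2 and Map4k1, with log2 fold changes from −2.92 to −0.82. Tfrc, the transferrin receptor by which dividing cells take up iron, was at 244, 514 and 405 CPM in positive and 744, 886 and 629 CPM in negative cells. Both the sums and the share of cells (46.4% ± 7.0 against 61.3% ± 6.6) were lower on each chip. Slu7, a splicing factor, was at 94.4, 100 and 90.6 CPM against 231, 226 and 232 CPM, with almost no spread among chips (log2 fold change −1.28 ± 0.31).

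Map4k1, a kinase of blood cells that restrains antigen receptor signalling, was detected in 33.3%, 28.6% and 13.3% of positive and 48.9%, 53.7% and 50% of negative cells. Its level was 59.5, 44.7 and 27.3 CPM against 115.9, 244 and 124.7 CPM (−1.87 ± 0.49). G3bp2, an RNA-binding protein of stress granules, was at 322, 309 and 224 CPM against 517, 571 and 414 CPM. Selenop, a plasma selenium carrier, was lower in sum (−2.02 ± 0.49) but was detected in 31.03% of positive and 24.04% of negative cells, so its sum and its share of cells did not agree in direction.

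Kit-positive cells were present in each of the other divisions of TN cells that were made by a marker gene. Kit-positive cells made up 34.7% ± 9.6 of the cells with Mpo or Prtn3 at 25 CPM or more, which are 49.3% of TN cells, and 33.3% ± 12.1 of the other TN cells (SD, n = 3 chips). Among the 65 cells with Dntt they were 35.9% ± 12.1 against 33.4% ± 10.4 of the rest. Within chips the difference was 1.46 ± 2.70 percentage points for Mpo or Prtn3 cells and 2.49 ± 4.60 for Dntt cells (SD, n = 3 chips). Each was smaller than its SD and was higher on 2 of 3 chips.

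Cells with H2-Aa (55 cells) were Kit-positive in 31.6% ± 10.1 against 34.99% ± 11.1 of the rest, and cells with Id2 but no H2-Aa (56 cells) in 30.1% ± 8.9 against 35.3% ± 10.9, in each case lower on 3 of 3 chips. Cells with Il7r (32 cells) were Kit-positive in 50%, 42.9% and 33.3% on chips 1, 2 and 3 against 38.1%, 40% and 20.6% of the rest, higher on each chip with 14 positive cells in all. The share among cycling cells was 31.8% ± 9.9 against 36.7% ± 11.6. At 50 CPM for the other marker the Il7r cells were higher on 2 chips only and the difference for Mpo or Prtn3 cells was −3.83 percentage points in place of 1.46. Cells with Id2 but no H2-Aa were then higher on 1 chip, with a difference of −2.25 ± 3.33 percentage points (SD, n = 3 chips).

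In the Ly6D+ cells of the same compartment, divided at the same 25 CPM, 33 of 152 cells were Kit-positive (20%, 20% and 25% on chips 4, 5 and 6). A model with an interaction between Kit side and population tested 11909 genes on 12 sums, and 0 (0.0%) differed between the populations in their Kit contrast at an edgeR adjusted p under 0.05, with 475 at an unadjusted p under 0.05. The chips hold 1 population each, and their 8 to 13 positive cells a chip make the Ly6D+ contrast coarse.

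Mpo was low there. It was at 15.2, 30.9 and 4.46 CPM in Kit-positive and 25.2, 55.3 and 66.7 CPM in Kit-negative Ly6D+ cells, lower on each chip, where it was higher on each TN chip. The log2 fold changes were −1.59 ± 0.58 in Ly6D+ and 2.05 ± 0.54 in TN cells in the joint model, a difference of 3.64 ± 0.79 (edgeR adjusted p = 1). Cd34 was at 194.4, 46.999 and 70.5 CPM in Kit-positive and 236, 121.6 and 297 CPM in Kit-negative Ly6D+ cells, for a difference of 1.81 ± 0.51 between the contrasts (edgeR adjusted p = 1).

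Slu7 was reversed as well, at 278, 308 and 233 CPM in Kit-positive against 145.8, 162.6 and 121.3 CPM in Kit-negative Ly6D+ cells (difference −2.35 ± 0.45, edgeR adjusted p = 1). Gimap6 had the same direction in both populations, with 1307, 1181 and 1466 CPM against 677, 1043 and 903 CPM in Ly6D+ cells and log2 fold changes of 0.75 ± 0.22 there and 0.98 ± 0.22 in TN. Irf8 was at −0.26 ± 0.17 in Ly6D+ and −0.51 ± 0.17 in TN cells. None of these differences between populations passed the test. Mpo, Slu7 and Gimap6 had been named for a small p in TN cells, a choice that can enlarge their difference from Ly6D+ cells.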

How the data were processed

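Single cells were captured on Fluidigm C1 chips, amplified over their full length with a SMARTer kit and made into Nextera XT libraries, per the labels' protocols. The authors deposited a table of unnormalised read counts for each gene in each cell, with cells of low mapping, counts or detected genes already removed, per the series' design text. Build mm9 and R 3.2.0 are named in the submitters' processing notes. No aligner, counter or annotation is named (not given in the sources used here). Such libraries are unstranded, so antisense partners cannot be told apart. Entrez identifiers were matched to symbols in a RefSeq table of GRCm38.p6 for 23334 of 23427 genes, for names only. No doublet caller was run, and no cell was left out. All 365 cells had distinct counts.

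Counts of Kit-positive and Kit-negative cells were summed per chip. The test was that of edgeR 4.0.16 under R 4.3.3 (TMM, filterByExpr, chip as a block, quasi-likelihood, Benjamini-Hochberg adjusted p under 0.05). Pairing comes from the labels: both sides of a chip share its capture. CPM of sums used TMM-scaled totals. The standard error of a fold change was derived from its F value. DESeq2 1.42.0 and limma 3.58.1 were alternatives. Only the edgeR step was tested on simulated data. Recovery of changes was required there only at a dispersion (spread beyond counting) far below the 0.866 of these data. It is therefore no test of what could be found at the spread seen here. The division, the 25 gene lists and the tests were chosen with earlier results of these data known. Named were 10 genes in each direction by p (same direction on 3 chips, detected in 20% or more of the higher side's cells) and a fixed set of markers. Of the other genes, Rgs18 was named for its limma-trend call and Cd83, Cd86 and Ikzf2 for their DESeq2 calls. Emb, Igsf6, Spib, Lck, Lyn, Vav1, Pik3cd, Csf2rb2, Tpx2, Rpl23, Ncl, Vim, Actb, Cd79a and Igll1 were chosen after their values were seen. Other settings changed the scaling, filter, depth, Kit threshold and cells used.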

Additional observations from a re-analysis of the deposited data

How the results depend on the processing

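With edgeR the count of genes past the threshold was 0 in all 17 settings other than the one reported, among them no replicate block (0 genes), RLE size factors, no filter, each chip left out (0 to 0), other Kit thresholds, exclusions of cells, and the joint model. DESeq2 called 225 and limma-trend on cell means 2, and the cause was not tested. The interaction count was 0 in each of its 8 other settings. 2 settings were chosen after seeing the data: 0 Kit reads against 100 CPM or more, and leaving out the cell with most Ebf1 reads. With 2 residual degrees of freedom and as few as 15 positive cells on a chip, low genes have wide errors. Genes detected per cell, positive minus negative, ranged from −15.0 to 69.95 with a chip left out, and reads per cell from 30240 to 72100. Members per cell of the early lymphoid list differed by −0.0167 to 0.503 with a chip left out. At 50 CPM for the marker, the share of Kit-positive cells differed by −3.83 percentage points for Mpo or Prtn3 cells and −7.95 for H2-Aa cells. Of 65 named genes, 33 changed the sign of their log2 fold change in at least 1 setting. Among these were 2 of the 20 chosen by p, Mpo and Selenop. The 20 were chosen for a small p and the same direction on 3 chips, so their count is no test of stability. Where cells were dropped by a gene itself (Prtn3, H2-Aa or a G2/M gene), that choice can set its sign, and 31 genes changed sign without these cases. The values on the other side of 0 follow by setting. Without the replicate block (chip) Cd74 0.10, Cpa3 0.0187. With cells thinned to equal depth Id2 0.11. With Kit positive at any read Cd48 −0.0167, Cd74 0.53, Cpa3 0.64, Ebf1 7.24, Hoxa9 −0.0143, Id2 0.21, Ly6d 0.22, Ptprc −0.0701. With Kit positive from 100 CPM Cd27 −0.28, Csf1r 0.16, Cst3 −0.57, Dntt −0.56, H2-Aa −0.84, Id2 0.15, Ptprc −0.25, Sh2b3 −0.59, Tal1 −2.30. With the Kit side taken from thinned reads H2-Aa −0.0316. Without cells of few detected genes Id2 0.17. Without H2-Aa cells Cpa3 0.12, Ebf1 1.95, H2-Aa −1.34, Id2 0.66. Without Mpo or Prtn3 cells Cd74 0.0999, Cebpa −0.42, Cpa3 2.15, Flt3 0.43, Hoxa9 −1.06, Id2 0.43, Ikzf1 −0.21, Itgax 0.48, Lmo2 −0.17, Prtn3 −5.29, Spi1 0.11. Without cycling cells Cd27 −0.0886, Csf1r 1.67, Elane −1.25, Flt3 0.11, H2-Aa −1.88, Itgax 2.06, Meis1 −0.33, Mki67 0.0844, Mpo −0.31, Spi1 0.32. By limma-trend on cell means Cst3 −0.77, Ebf1 0.10, H2-Aa −0.45, Hoxa9 −0.14, Notch1 −0.14, Selenop 0.068, Spi1 0.35. With 0 Kit reads against 100 CPM or more Cd27 −0.0002, Cpa3 0.14, Csf1r 0.0079, Cst3 −0.48, Dntt −0.12, Ebf1 1.97, H2-Aa −0.73, Id2 0.21, Ptprc −0.25. Without chip 1 Cd74 0.15, Ikzf1 −0.0186, Itgax 1.22, Myc −0.12, Spi1 0.26, Stat5a 0.063. Without chip 2 Cd27 −0.25, Cpa3 1.33, Ebf1 1.59, H2-Aa −0.26, Id2 0.29. Without chip 3 Cd48 −0.0031, Ebf1 2.61, Gfi1 −0.51, Id2 0.0758, Myb −0.34, Ptprc −0.20, Sox4 0.13, Stat5a 0.0057. With each chip left out in turn the ranges were Cd27 −0.25 to 0.73, Cd48 −0.0031 to 0.33, Cd74 −0.79 to 0.15, Cpa3 −4.90 to 1.33, Ebf1 −4.76 to 2.61, Gfi1 −0.51 to 2.74, H2-Aa −0.26 to 0.30, Id2 −0.48 to 0.29, Ikzf1 −0.0186 to 0.17, Itgax −1.91 to 1.22, Myb −0.34 to 0.47, Myc −0.12 to 0.70, Ptprc −0.20 to 0.24, Sox4 −1.44 to 0.13, Spi1 −1.17 to 0.26, Stat5a −1.13 to 0.063.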

Other observations

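The genes that DESeq2 called beside Mpo were in part carried by single cells. Zfp57, an imprinting factor, was at 11.8, 115.6 and 114.5 CPM in Kit-positive cells and at 0, 0 and 32.96 CPM in Kit-negative cells, where 1 cell held 100% of its reads, and it was detected in 5.7% ± 2.1 of positive cells (DESeq2 adjusted p = 7.96e-08). Scml4 was at 0 on the positive side of all 3 chips, and 1 cell held 95.8% of its reads on the negative side. Aldh3a2, a fatty aldehyde dehydrogenase, was spread over more cells, at 1.11, 0.788 and 0 CPM against 28.1, 38.7 and 126.4 CPM, and was detected in 17.6% ± 5.8 of Kit-negative cells. None of these 3 genes was called by edgeR.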
